A study of Mus musculus with 4 samples.

Results

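The expression of 9 regulators of the G1 phase of the cell cycle was followed across the cell types of mouse tumor ascites. The genes were the D-type cyclins Ccnd1, Ccnd2 and Ccnd3, their kinases Cdk4 and Cdk6, the inhibitors Cdkn1b (p27), Cdkn2a (p16 and p19ARF) and Cdkn2c (p18), and the retinoblastoma gene Rb1. They were taken by symbol from the 32285 genes of the count tables, in which each of the 9 symbols occurred once. The values are UMIs (unique molecular identifiers, each standing for 1 captured RNA molecule) per 1000000 UMIs of a cell type in a library (CPM), from 4 single-cell libraries of the 3′ type.

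All mice were female FVB that had received Br-Luc ovarian tumor cells (p53-/-, brca1-/-, myc, Akt-myr) into the peritoneum, and ascites was taken 6 weeks after the injection. One group of mice was given siCont-LNA, a control small interfering RNA with locked nucleic acid bases, and the other siFXR1-LNA, directed against Fxr1. Both were complexed with jetPEI, a polymer carrier, so both groups share the tumor, the carrier and the injections. Each group had 2 libraries, and each library held the pooled ascites of 3 mice, so differences between single mice were not measured. With 2 libraries against 2, an exact permutation test cannot give a two-sided p below 0.333.

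D-type cyclins bind CDK4 or CDK6, and the active complex phosphorylates the retinoblastoma protein, which then releases E2F factors and lets the genes of DNA replication be transcribed. Proteins of the INK4 type, encoded by Cdkn2a and Cdkn2c, bind the kinases and block them, while p27 holds cyclin and kinase complexes and arrests cells in G1. The 3 cyclins carry out the same step but are used by different lineages, and Ccnd1 and Cdk4 are common oncogenes of epithelial tumors.

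The D-type cyclins share a short motif at their amino end, leucine, any residue, cysteine, any residue, glutamate, through which they reach the retinoblastoma protein. It is shown here because it is what the 3 paralogues have in common although their use differed between cell types. The first 30 coding bases of the transcripts Ccnd1-201, Ccnd2-201 and Ccnd3-201 are given 5′ to 3′ from GENCODE on GRCm38, with the codons of the motif in capitals.
Ccnd1: atggaacaccagCTCCTGTGCTGCGAAgtg
Ccnd2: atggagCTGCTGTGCTGCGAGgtggacccg
Ccnd3: atggagCTGCTGTGTTGCGAGggcacccgg
The Ccnd1 bases lie at chr7:144939664-144939693 on the minus strand, the Ccnd2 bases at chr6:127150744-127150773 on the minus strand and the Ccnd3 bases at chr17:47593655-47593684 on the plus strand. All are in coding exons and start at the initiation codon. The motif took codons 5 to 9 in Ccnd1 and codons 3 to 7 in Ccnd2 and Ccnd3. It occurred in the same window of 12 of the 21585 genes with a coding start, or 0.0556%. Over their whole coding sequences Ccnd1 and Ccnd2 were identical at 67.2% of aligned bases, Ccnd1 and Ccnd3 at 62.4% and Ccnd2 and Ccnd3 at 68.5%.

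The 4 libraries held 17309 to 54665 barcodes and 78179267 to 113606837 UMIs, of which 16874 to 54344 barcodes in each library passed the filters on gene number and mitochondrial reads. Hemoglobin took 29.5% and 41.1% of the UMIs of the siCont libraries and 10.0% and 9.11% of the others. Pairs of libraries shared 575 to 2846 barcodes. Cells were clustered without the G1 genes and named from fixed markers, which gave 2873 epithelial-like, 14607 macrophage-like, 3658 dendritic cell (DC)-like, 6897 T-like, 7674 B-like, 11590 granulocyte-like and 327 mast-like cells. The epithelial-like name rests on keratins, and the summed markers of mesothelium (1049 to 1830 CPM) exceeded those of epithelium (474 to 1014 CPM) in every library, so tumor cells and mesothelial cells cannot be told apart here. The targeted gene Fxr1 was at 109 and 125 CPM in the epithelial-like cells of the siCont libraries and at 140 and 138 CPM in those labelled siFXR1-LNA. It was also not lower in the other tested types, so the second group is called by its label throughout.

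RNA released by broken cells gives UMIs in cells that do not express a gene. Its level was estimated for each library from barcodes taken to lack these genes. They were the erythroid barcodes in siCont libraries, and a cluster that the fixed markers left unnamed in the libraries labelled siFXR1-LNA. The latter held 41165 and 5400 barcodes of the 54344 and 16874 kept, with median UMIs of 1264 in replicate 1 and 2134 in replicate 2, and hemoglobin took 14.7% and 44.8% of the UMIs of unnamed barcodes there. Each gene's level there was scaled by the summed level of Krt19, Krt18, Krt8 and Upk3b, genes of the epithelial-like cells, in the cell type. A ratio of observed to scaled level near 1 is what released RNA alone would give. If the reference barcodes themselves hold cells that express a gene, the scaled level is too high and the ratio too low. In the unnamed cluster 2 of the epithelial and 2 of the mesothelial markers were raised, so this may apply there. In the erythroid barcodes 1 marker of dividing cells was raised, so it may apply to them too. Krt19, Krt18, Krt8 and Upk3b summed to 830 and 597 CPM in the unnamed cluster, against 741 and 191 CPM in the erythroid barcodes of siCont libraries. The reference thus differs between the groups, so ratios and scaled levels of the groups cannot be compared. Epithelial-like cells have no scaled background, since the scaling uses their own genes. With hemoglobin left out, their siCont values were below the erythroid barcodes for Ccnd1 (202 and 129 against 360 and 158 CPM) and Cdk4 (208 and 126 against 343 and 138 CPM). Cdkn1b, Cdkn2a and Cdkn2c were also below, and Ccnd2, Ccnd3, Cdk6 and Rb1 above. The part of released RNA in epithelial-like levels was not tested.

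The D-type cyclins were divided between the cell types. Lymphoid cells held mostly Ccnd3 in 3 of 4 libraries, epithelial-like cells all 3 cyclins with Ccnd2 first in 3 of 4 libraries, and macrophage-like and DC-like cells a mixture that differed between the groups. The share of each cyclin is its percentage of the summed UMIs of the 3 genes. 3′ UMIs count molecules and do not grow with transcript length, but the genes span 9.995 kb (Ccnd1), 27.032 kb (Ccnd2) and 94.641 kb (Ccnd3), and whether intronic reads were counted is not given in the sources used here.

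Ccnd1, the cyclin best known from carcinoma, was at 189 and 118 CPM in the epithelial-like cells of siCont replicates 1 and 2 and at 71.9 and 95.3 CPM in replicates 1 and 2 labelled siFXR1-LNA. Its mean there was 119 ± 50.5 CPM (SD, n = 4 libraries). With hemoglobin left out, the siCont values were below those of the erythroid barcodes, as given above, and the part of released RNA was not tested. DC-like cells had the highest mean, with 296 and 301 CPM in siCont libraries against 51.8 and 93.3 CPM in the others. In macrophage-like cells it was at 128 and 152 CPM against 34.9 and 31.8 CPM, so the groups did not overlap in these 3 types. Of all genes tested, 26.5% (epithelial-like), 26.8% (DC-like) and 47.7% (macrophage-like) were also lower without overlap. The ranges of the types themselves overlapped between all neighbours in the order of the means.

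In T-like cells Ccnd1 was at 120, 32.3, 67.4 and 55.6 CPM in the order of libraries used above, and in B-like cells at 107, 25.5, 68.7 and 54.1 CPM. These values followed the scaled background. Over T-like, B-like and granulocyte-like cells the ratio of observed to scaled Ccnd1 lay between 0.913 and 1.21, and all 12 sums were under 1.5. Ccnd1 in these cells is therefore given as background and not as expression. This rests on the erythroid barcodes in siCont libraries and on the unnamed cluster in those labelled siFXR1-LNA. In DC-like cells the ratio was at least 5.22 in the siCont libraries and 1.45 and 4.64 in the other 2, and in macrophage-like cells 2.68 and 16.8 against 1.29 and 2.45.

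Ccnd2, a cyclin of many hematopoietic cells, was at 192 and 288 CPM in the epithelial-like cells of siCont libraries and at 119 and 262 CPM in those labelled siFXR1-LNA, and these groups overlapped. T-like cells were at 269 and 270 CPM against 127 and 213 CPM. DC-like cells had the highest mean, 254 ± 70.8 CPM, and macrophage-like cells the lowest, 69.0 ± 38.9 CPM (SD, n = 4 each). B-like cells stayed between 69.2 and 118 CPM. The ratio to background was 2.32 to 9.07 in T-like cells and 1.29 to 3.75 in B-like cells.

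Ccnd3, the D-type cyclin of lymphocyte maturation, was at 268, 574, 570 and 510 CPM in T-like cells and at 152, 375, 577 and 455 CPM in B-like cells. The low value in both was siCont replicate 1. Epithelial-like cells were at 103, 164, 141 and 113 CPM, and macrophage-like cells at 79.5, 138, 148 and 125 CPM. The lowest DC-like value, 216 CPM, was above the highest epithelial-like value, 164 CPM. This was the only pair of neighbours in the Ccnd3 order whose ranges did not overlap. Ccnd3 was 7.18 to 50.0 times its scaled background in T-like and B-like cells and 4.84 to 33.3 times in granulocyte-like cells.

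**Figure D1:**
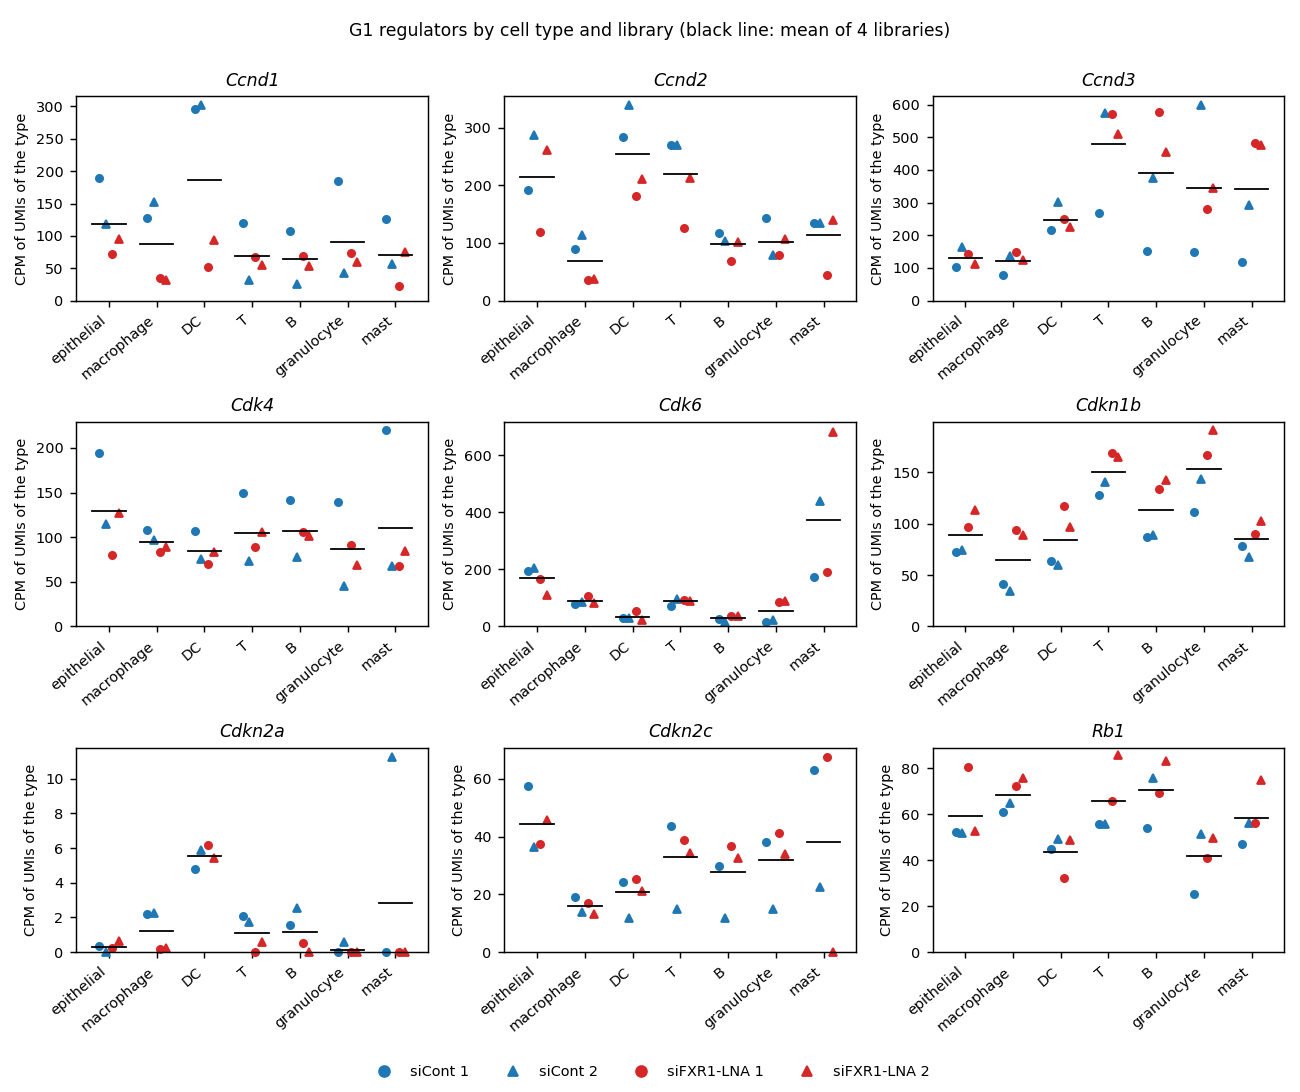
Level of each G1 regulator (CPM of the UMIs of the cell type, linear axis from 0) in 7 cell types, with 1 point per library and a black line at the mean of 4. Ccnd3 had its highest means in lymphoid cells, Ccnd1 of siCont libraries stood out in DC-like cells, and Cdk6 was low in B-like and DC-like cells.

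T-like cells were not uniform in Ccnd3. A subcluster of 926 cells led by Plcl1 and Themis, a gene of T cell receptor signalling, was at 512, 1174, 1264 and 1233 CPM, against 240 to 687 CPM in 3 other T-like subclusters, of 3491, 1258 and 420 cells. Cdk6 was at 219, 255, 167 and 184 CPM there and at 54.9 to 182 CPM in those 3. The median UMIs per cell of this Themis subcluster were 1605 to 1975. Ccnd3 and Cdk6 span 94.641 and 189.524 kb, and the part of gene length in these values was not tested. Of the 2 remaining subclusters, one of 607 cells had both T and B cell genes among its leading genes. They were Trdc, Trdv4, Tcrg-V6 and Tcrg-C1 of the gamma-delta T cell receptor, and Cd79a and Cd79b. In it 3 T cell and 5 B cell markers were raised, and Ccnd3 was at 206 to 345 CPM. The other, of 195 cells and led by neutrophil genes such as Mmp8 and S100a8, had Ccnd3 at 567 to 749 CPM. Of the 3 compared subclusters, one came almost wholly from siCont libraries, with 1662 and 1773 cells against 5 and 51, and had Ccnd3 at 240 and 514 CPM in them. A further one, led by the hypoxia gene Car9, held 2 and 11 siCont cells against 688 and 557, and had Ccnd3 at 388 and 429 CPM in the latter. Its leading genes Car9, Ccn2, Sprr1a, Stbd1 and Vldlr also led the unnamed cluster, and 1 T cell marker was raised in it. In the subcluster of 420 cells no T cell marker was raised against the other T-like subclusters. The borders of T-like and macrophage-like subclusters moved with the rounding of the numerical library used, so these values describe 1 such division of the cells and carry no test.

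As shares, Ccnd3 was the largest cyclin of B-like cells in 4 of 4 libraries, with 40.3%, 74.5%, 80.7% and 74.6%. In T-like cells it took 40.8%, 65.5%, 74.6% and 65.6%, and Ccnd2 exceeded it by a narrow margin in siCont replicate 1, at 40.9%. Ccnd1, given above as background in T-like and B-like cells, is counted in these shares and lowers those of the other cyclins. It was highest in siCont replicate 1, at 120 CPM in T-like and 107 CPM in B-like cells. In epithelial-like cells Ccnd2 took 39.7%, 50.5%, 35.8% and 55.7%, and Ccnd3 was larger in replicate 1 labelled siFXR1-LNA, at 42.5%. The epithelial-like Ccnd3 share was 29.1% ± 9.46 (SD, n = 4 libraries) and lay below the T-like and B-like share of the same library in every library, although siCont replicate 1 of T-like and B-like cells fell within the epithelial-like range.

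In macrophage-like cells the shares of the groups did not overlap for any of the 3 cyclins. Ccnd1 took 43.1% and 37.7% in siCont libraries and 16.0% and 16.4% in those labelled siFXR1-LNA. Ccnd3 took 26.8% and 34.2% against 67.8% and 64.4%, a difference of 35.6 percentage points at the smallest p that the exact two-sided permutation test can give (0.333). In DC-like cells Ccnd1 took 37.2% and 32.0% against 10.7% and 17.6%, and Ccnd3 took 27.2% and 31.9% against 51.7% and 42.5%. The Ccnd2 share, which was lower in the macrophage-like cells labelled siFXR1-LNA (30.1% and 28.2% against 16.2% and 19.2%), was not lower in DC-like cells, at 35.6% and 36.0% against 37.6% and 39.9%. The share of each library rests on 594 to 7992 cyclin UMIs in epithelial-like, macrophage-like and DC-like cells, which puts the exact binomial 95% interval of the macrophage-like Ccnd1 share in siCont replicate 2 at 36.6% to 38.8%. Such intervals cover counting error only.

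**Figure D2:**
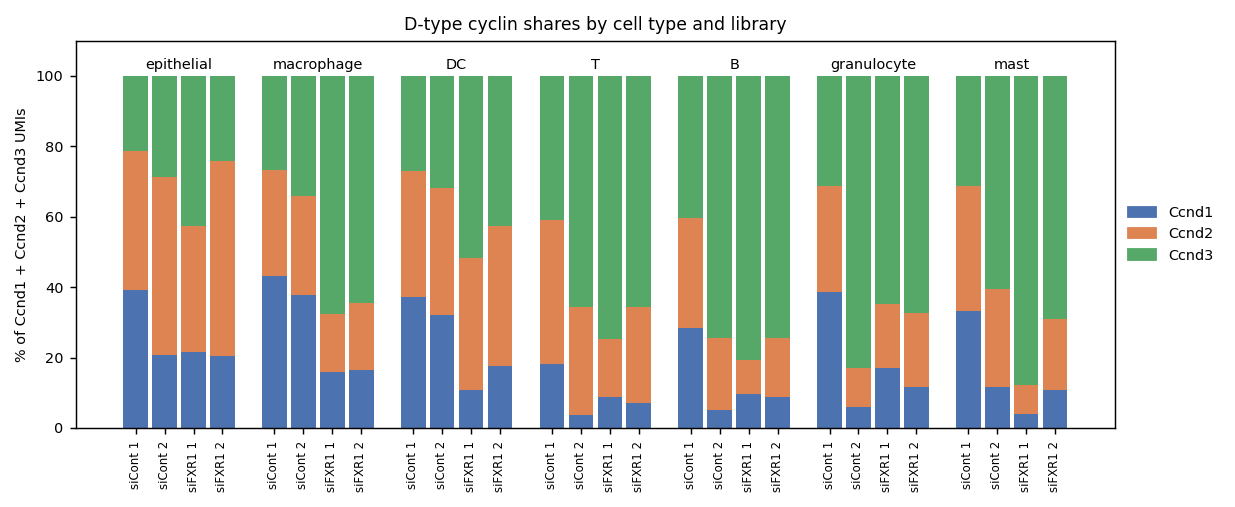
Share of Ccnd1, Ccnd2 and Ccnd3 in their summed UMIs (%, stacked bars to 100) for each cell type and library. The Ccnd1 of T-like, B-like and granulocyte-like cells, given as background in the text, is included. Ccnd3 was the largest share of B-like cells in all 4 libraries, and the macrophage-like Ccnd1 share was 43.1% and 37.7% in siCont libraries against 16.0% and 16.4% in the others.

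**Figure D3:**
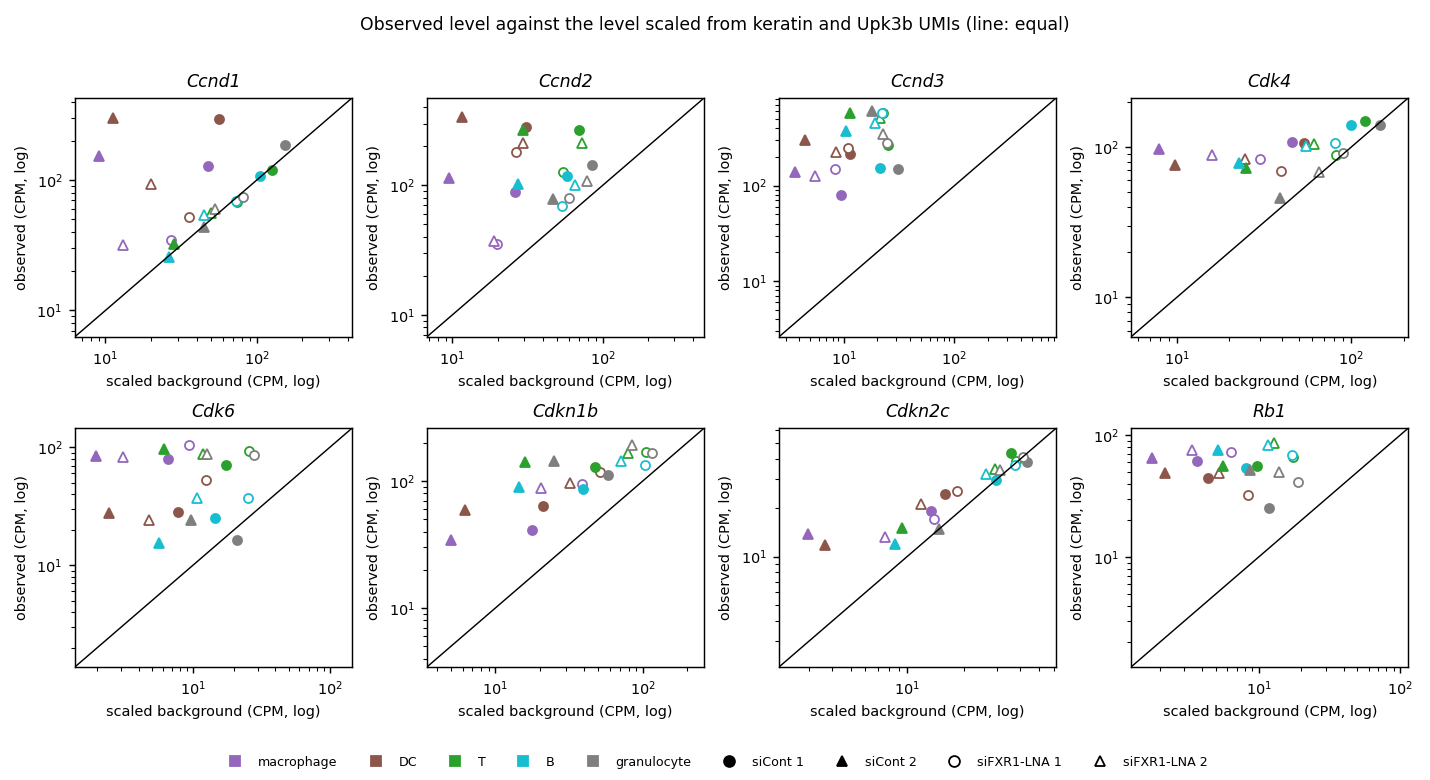
Observed level against the level scaled from keratin and Upk3b UMIs (both CPM, log axes) for 8 genes in 5 cell types, with filled points for siCont and open points for libraries labelled siFXR1-LNA. The Ccnd1 points of T-like, B-like and granulocyte-like cells lie on the line of equality (ratios 0.913 to 1.21), while every Ccnd3 point lies at least 4.84 times above it.

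The kinases differed in where they were found. Cdk6 separated the cell types more than Cdk4 did. Epithelial-like cells were at 194, 203, 166 and 110 CPM of Cdk6, all above the macrophage-like cells at 79.3, 84.5, 106 and 82.9 CPM. T-like cells lay between 71.2 and 97.4 CPM, and B-like cells at 25.1, 15.3, 36.9 and 37.0 CPM. The B-like and T-like ranges did not overlap. Mast-like cells had the highest mean, 371 ± 240 CPM (SD, n = 4), resting on 17 to 73 UMIs of Cdk6 in each library.

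Granulocyte-like Cdk6 was at 16.5 and 24.0 CPM in siCont libraries, from 13 and 42 UMIs, and at 86.9 and 87.3 CPM in those labelled siFXR1-LNA. In siCont replicate 1 it was 0.783 times the scaled background, so that value is background level. The other 3 libraries were at 2.49 to 6.86 times the background.

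Cdk4, the partner kinase that many cells express together with Cdk6, was at 194, 115, 79.9 and 128 CPM in epithelial-like cells and between 69.6 and 108 CPM in macrophage-like and DC-like cells. The type means ran only from 84.1 to 129 CPM, and the ranges of all neighbours in their order overlapped. In granulocyte-like cells Cdk4 was 0.949 to 1.17 times its scaled background, which is background level. In T-like and B-like cells it was 1.08 to 3.41 times the background. Cdk6 as a percentage of Cdk4 plus Cdk6 was 56.9% ± 10.3 in epithelial-like cells and 48.3% ± 5.62 in macrophage-like cells (SD, n = 4 each), with overlapping ranges. No such percentage is given for T-like and B-like cells, because their Cdk4 was close to the scaled background in some libraries. In T-like cells of siCont replicate 1, for example, Cdk4 was at 150 CPM over a scaled background of 121 CPM.

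The inhibitors had separate patterns. Cdkn1b, whose product p27 keeps resting cells in G1, was highest in granulocyte-like and T-like cells. T-like cells were at 128, 140, 169 and 165 CPM and granulocyte-like cells at 112, 144, 167 and 191 CPM. Epithelial-like cells were at 72.5 and 74.8 CPM in siCont libraries and at 96.6 and 114 CPM in those labelled siFXR1-LNA. Macrophage-like cells were at 41.1 and 34.5 CPM against 94.2 and 88.6 CPM, and DC-like cells at 64.1 and 59.4 CPM against 118 and 96.8 CPM. In CPM the groups did not overlap in any of these 5 types, where 26.2% (epithelial-like), 22.2% (macrophage-like), 28.8% (DC-like), 35.3% (T-like) and 34.6% (granulocyte-like) of all genes were higher without overlap. With hemoglobin left out of the totals the granulocyte-like groups overlapped, at 149 and 190 CPM against 183 and 200 CPM. The scaled background of Cdkn1b in T-like cells was 47.5 and 15.9 CPM in siCont libraries against 106 and 78.9 CPM in the others. These levels come from different reference barcodes in the groups, so what exceeded them cannot be compared between the groups. Cdkn1b was 1.60 to 8.85 times its background in T-like, 1.45 to 5.77 times in granulocyte-like, 2.30 to 6.84 times in macrophage-like and 2.29 to 9.55 times in DC-like cells.

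Cdkn2a was rare everywhere. Its p16 and p19ARF transcripts share their last exons, so 3′ UMIs do not tell them apart. DC-like cells held 48, 48, 10 and 17 UMIs in the 4 libraries, or 4.77 to 6.16 CPM. Macrophage-like cells held 55 and 41 UMIs in siCont libraries (2.19 and 2.25 CPM), against 4 and 7 UMIs in the other group (0.174 and 0.211 CPM). Epithelial-like cells held 2, 0, 2 and 2 UMIs. The 0 among the 123 epithelial-like cells of siCont replicate 2 allows a share of up to 2.44% of cells with a UMI. Cells with a UMI made up 1.98% to 2.40% of DC-like cells, against 0.0497% and 0.0190% of erythroid barcodes in siCont replicates 1 and 2. The median depths were 4599 to 8296 UMIs in DC-like cells and 1709 and 2320.5 UMIs in these erythroid barcodes. When every cell was thinned to 1000 UMIs the DC-like share was 0.508% to 0.553% and the erythroid share 0.0293% and 0.00827%.

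Cdkn2c, the INK4 gene often raised in dividing cells, was at 57.7, 36.5, 37.5 and 45.8 CPM in epithelial-like cells and between 13.2 and 19.2 CPM in macrophage-like cells. In T-like, B-like and granulocyte-like cells 11 of 12 sums were under 1.5 times the scaled background, with a range of 0.879 to 1.61. Its level in those cells cannot be told from released RNA.

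Rb1, the substrate of the kinases, was found in every type. Its means ran from 41.9 ± 11.9 CPM in granulocyte-like cells to 70.6 ± 12.3 CPM in B-like cells (SD, n = 4 each), and all neighbours overlapped. It was 2.13 to 14.7 times the scaled background in T-like, B-like and granulocyte-like cells. Epithelial-like cells were at 52.4, 51.8, 80.6 and 52.7 CPM.

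Epithelial-like cells fell into 4 subclusters that the libraries filled unequally. A subcluster led by Hrk held 13 and 5 cells of the siCont libraries and 1137 and 276 of those labelled siFXR1-LNA. A subcluster with Kntc1, a gene of the kinetochore, among its leading genes held 547 and 78 against 27 and 13, one with markers of several cell types 111 and 15 against 238 and 63, and a keratin-high subcluster 176 and 25 against 81 and 68. In the Kntc1 subcluster 4 cycling markers were raised against the other epithelial-like subclusters. Their sum was 409, 59.3, 1300 and 386 CPM, the highest of the subclusters in all libraries but siCont replicate 2. There, with 78 cells, it was below the mixed (100 CPM) and keratin-high (167 CPM) subclusters. The subcluster is therefore named by Kntc1, although it held cells with cycling markers. It made up 547 of 847 and 78 of 123 epithelial-like cells of the siCont libraries. The G1 genes took no part in the clustering. The keratin-high and the mixed subcluster were the only ones with 15 or more cells in each library, so in the type as a whole a difference between groups and a difference between subclusters cannot be told apart.

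The keratin-high subcluster had its own set of G1 levels. It was recognised by Krt8, Krt18 and Krt19 at a summed 1453 to 1885 CPM against 237 to 644 CPM in the other subclusters, and its Wt1, a mesothelial and ovarian marker, was lower, at 413 to 485 CPM against 525 to 1759 CPM. Cdk4 was at 353, 175, 239 and 284 CPM there and had a median of 77.2 CPM over the 11 sums of the other subclusters. Ccnd1 was at 318, 286, 218 and 144 CPM against a median of 73.8 CPM. Cdkn2c was at 103, 71.6, 68.5 and 80.0 CPM against a median of 30.9 CPM. The ranges overlapped for all 3 genes, since the highest value of the other subclusters was 177 CPM for Cdk4, 290 CPM for Ccnd1 (12 UMIs from 13 cells) and 129 CPM for Cdkn2c, and all 4 keratin-high values of Cdkn2c lay within the range of the others.

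Cdk6 and Rb1 had the opposite distribution. Cdk6 in the keratin-high subcluster was at 78.7, 87.5, 82.0 and 66.4 CPM, all below the other subclusters at 106 to 288 CPM. Rb1 was at 28.6, 27.8, 20.8 and 22.1 CPM, all below the others at 47.3 to 107 CPM. Ccnd3 had a median of 89.4 CPM against 130 CPM, with overlapping ranges, and Cdkn1b one of 85.5 CPM against 85.8 CPM. No test was run between subclusters, which were formed from the same cells. The genes that were lower span 189.524 kb (Cdk6), 142.15 kb (Rb1) and 94.641 kb (Ccnd3), and those that were higher 4.387 kb (Cdk4), 6.314 kb (Cdkn2c) and 9.995 kb (Ccnd1). Cdkn1b, whose medians differed little, spans only 5.113 kb. The part of gene length in this pattern was not tested. Median UMIs per cell were 8809 to 12589 in the keratin-high subcluster.

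**Figure D4:**
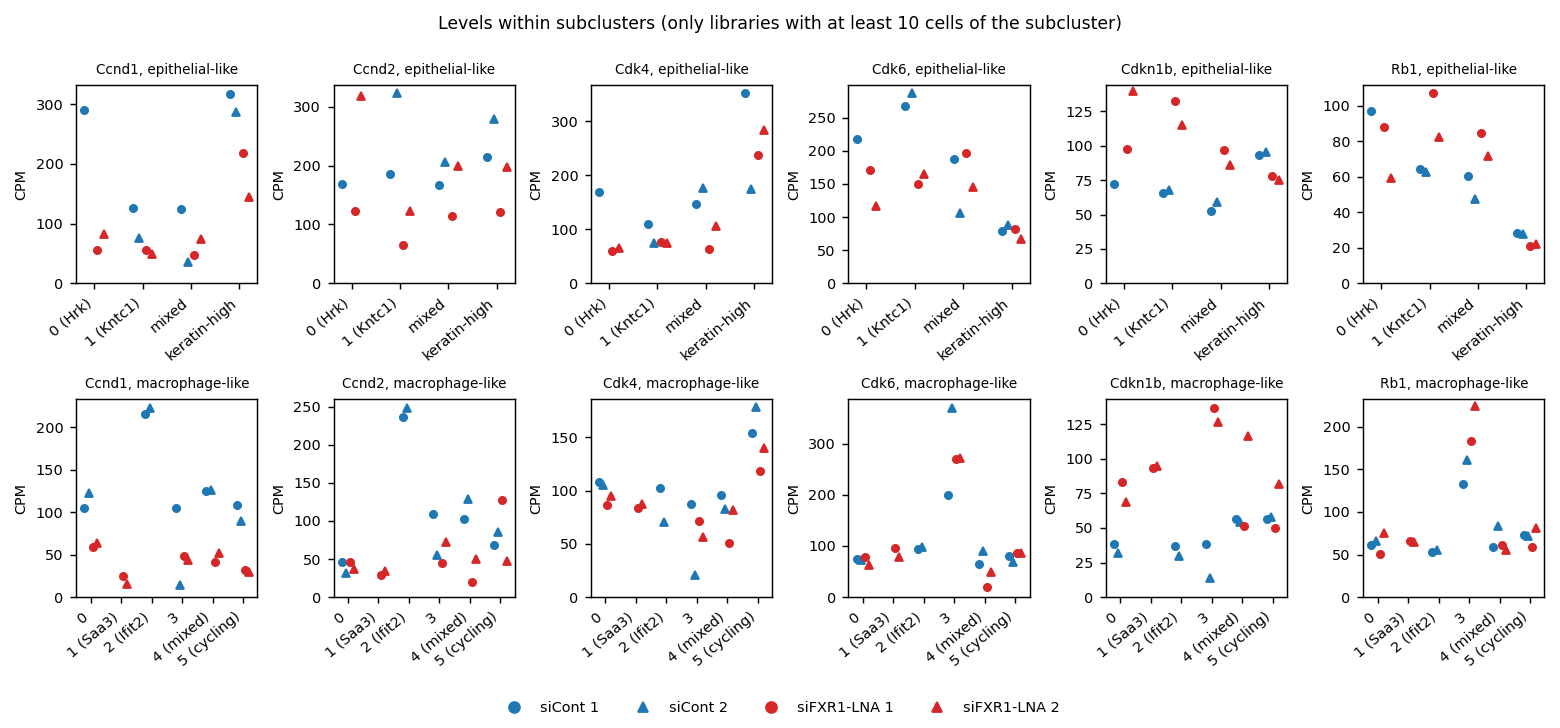
Levels of 6 members (CPM, linear axes from 0) in the subclusters of epithelial-like (top) and macrophage-like (bottom) cells, 1 point for each library with at least 10 cells. Cdk4 and Ccnd1 had their highest values (353 and 318 CPM), and Cdk6 and Rb1 all of their lowest, in the keratin-high subcluster of epithelial-like cells, and macrophage-like subclusters 1 (led by Cxcl3 and Saa3) and 2 (Ifit2) were each filled by 1 group.

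In comparing the groups, each type's counts were scaled by TMM factors, which move the median log2 difference of all genes from -0.16 in CPM to 0.0024 in macrophage-like cells, from 0.17 to -0.0091 in T-like cells, from 0.17 to -0.011 in B-like cells and from 0.25 to -0.0094 in granulocyte-like cells. Fold changes are relative to that median. Between the groups, no member passed the test in epithelial-like cells. Ccnd1 was 0.88 ± 0.27 (SE) lower in libraries labelled siFXR1-LNA on the log2 scale, with an adjusted p of 0.0776 in edgeR's quasi-likelihood test over all 13117 genes tested. Cdkn1b was 0.54 ± 0.23 higher (adjusted p = 0.185), Cdk4 was at -0.59 ± 0.29 (adjusted p = 0.263) and Cdk6 at -0.48 ± 0.28 (adjusted p = 0.338). Of the 8 members tested, 0 were called where 7.37% of all genes were, 2 had an unadjusted p under 0.05 where 23.5% did, and DESeq2 called 0. The CPM of the groups did not overlap for 2 of 9 members that were higher and 2 that were lower, where 26.2% and 26.5% of all genes did so. Cdkn2a did not pass the filter on low counts. On simulated counts of these cells the test found 20% of genes changed by a factor of 2 and 86% of genes changed by a factor of 4, so changes of the observed sizes would often be missed.

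The epithelial-like Ccnd1 result depended on the cells, libraries and filter used. It was called without siCont replicate 2 (log2 fold change -1.12, adjusted p = 0.0334) and without replicate 2 labelled siFXR1-LNA (-1.02, adjusted p = 0.0193), where Ccnd2 (-0.91, adjusted p = 0.0448) and Cdk4 (-0.88, adjusted p = 0.0466) were called as well. With no filter on low counts Ccnd1 was also called (-0.86, adjusted p = 0.0212). Without the Kntc1 subcluster Ccnd1 was at -1.43 (adjusted p = 0.0102) and Cdk4 at -1.22 (adjusted p = 0.0230), where the siCont cells that remain are mostly keratin-high. Within the keratin-high subcluster alone, 229 genes were called and no member was. Ccnd1 there was at -0.64 (adjusted p = 0.180) and Cdk4 at 0.0038.

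In macrophage-like cells 4 of 9 members passed, against 18.7% of the 14494 genes tested. Ccnd1 fell by 1.87 ± 0.16 on the log2 scale (adjusted p = 0.00688), Ccnd2 fell by 1.28 ± 0.17 (adjusted p = 0.0134) and Cdkn2a fell by 3.29 ± 0.40 (adjusted p = 0.0118), while Cdkn1b rose by 1.48 ± 0.13 (adjusted p = 0.00703). The lower group of Cdkn2a rests on 4 and 7 UMIs. Rb1 was 0.43 ± 0.11 higher (adjusted p = 0.0572), and Ccnd3, Cdk4, Cdk6 and Cdkn2c had adjusted p-values from 0.150 to 0.832. DESeq2 called 5 members, and 5 had an unadjusted p under 0.05 where 36.7% of all genes did. The CPM of the groups did not overlap for 2 of 9 members that were higher and 4 that were lower in libraries labelled siFXR1-LNA, where 22.2% and 47.7% of all genes did so.

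The macrophage-like groups were made of different subclusters. Subcluster 1, led by Cxcl3 and the acute phase gene Saa3, held 0 and 1 siCont cells against 2079 and 1912, and subcluster 2, with interferon-induced genes such as Ifit2, held 1040 and 717 siCont cells against 0 and 0. Ccnd1 was at 24.7 and 15.4 CPM in subcluster 1 and at 216 and 223 CPM in subcluster 2, and Ccnd2 at 29.1 and 34.4 CPM and at 236 and 249 CPM. In subcluster 0, which both groups filled with 1191 to 2957 cells, Ccnd1 was at 105 and 123 CPM against 59.4 and 64.1 CPM, and Cdkn1b at 38.5 and 31.6 CPM against 83.4 and 68.6 CPM. Ccnd2 there was at 45.6 and 31.6 CPM against 46.4 and 37.4 CPM and overlapped. Subcluster 3, with 109, 41, 627 and 413 cells of low depth (median UMIs 2459 to 3544), had Cdk6 at 200 to 370 CPM and Rb1 at 133 to 224 CPM, above all other macrophage-like subclusters, and markers of epithelial cells and granulocytes were raised in it. Cdk6 and Rb1 span 189.524 and 142.15 kb, and the part of gene length here was not tested.

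Tested in subcluster 0 alone by edgeR, 0 of 12615 genes were called and 1205 had an unadjusted p under 0.05, with Ccnd1 at -0.87 (adjusted p = 0.373), Cdkn1b at 1.13 (adjusted p = 0.373), Cdkn2a at -2.91 (adjusted p = 0.424) and Ccnd2 at 0.13 (adjusted p = 0.889). DESeq2 was not run there. All 4 calls were also lost without replicate 1 (adjusted p from 0.0605 to 0.103) or replicate 2 (0.0508 to 0.0791) labelled siFXR1-LNA. Their log2 fold changes in these 2 fits were -1.92 and -1.79 for Ccnd1, -1.22 and -1.30 for Ccnd2, 1.45 and 1.54 for Cdkn1b, and -3.15 and -3.42 for Cdkn2a. The summed DC markers in macrophage-like cells were 7269 and 8118 CPM in siCont libraries against 1727 and 3088 CPM, and the summed cycling markers 235 and 222 CPM against 62.3 and 53.0 CPM. Their part in the result was not tested. The cycling subcluster had Cdk4 at 118 to 178 CPM and Cdkn2c at 40.8 to 96.0 CPM, the highest Cdkn2c of the macrophage-like subclusters in each library, and its removal kept the 4 calls.

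In DC-like cells 1 of 9 members passed, where 2.35% of genes were called. Ccnd1 fell by 2.03 ± 0.27 (adjusted p = 0.0300). Ccnd2 was 0.67 ± 0.16 lower (adjusted p = 0.103) and Cdkn1b 0.78 ± 0.16 higher (adjusted p = 0.0776). Cdkn2a, which was lower in the macrophage-like cells, changed by 0.09 ± 0.36 on that scale here (adjusted p = 0.915). DESeq2 called 3 members, and 3 had an unadjusted p under 0.05 where 20.4% of all genes did. Groups did not overlap for 1 member that was higher and 2 that were lower, against 28.8% and 26.8% of all genes. The Ccnd1 call was lost without replicate 1 (-1.70, adjusted p = 0.110) or replicate 2 (-2.54, adjusted p = 0.0744) labelled siFXR1-LNA. The tests of DC-like and granulocyte-like cells were added after the levels had been seen.

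In T-like cells 0 of 8 members passed, where 0.562% of genes were called, with 1 at an unadjusted p under 0.05 where 12.7% of genes were (Ccnd2, log2 fold change -0.86 ± 0.30, adjusted p = 0.326) and 0 called by DESeq2. Groups did not overlap for 2 members that were higher and 2 that were lower, against 35.3% and 12% of the genes past the filter. Of the lower ones Cdkn2a, from 11, 11, 0 and 2 UMIs, did not pass that filter. In B-like cells 0 of 8 passed, where 0.0963% of genes were called, with 0 at an unadjusted p under 0.05 where 14.3% of genes were and 0 by DESeq2. Groups did not overlap for 4 members that were higher and 2 that were lower, against 36.3% and 14.4% of the genes past the filter. Here too Cdkn2a, from 15, 21, 1 and 0 UMIs, was among the lower ones and did not pass it. B-like Ccnd3 was at 0.79 ± 0.46 (adjusted p = 0.483) and was called without siCont replicate 2 (1.58, adjusted p = 0.0189). In granulocyte-like cells 0 of 8 passed, where 2.74% of genes were called, with 1 at an unadjusted p under 0.05 where 17.9% of genes were and 1 called by DESeq2, which was Cdk6 in both (edgeR log2 fold change 1.79 ± 0.43, adjusted p = 0.0537). Groups did not overlap for 2 members that were higher and 0 that were lower, against 34.6% and 16.2% of all genes. Mast-like cells were not tested. Of their 9 members 3 were higher without overlap in libraries labelled siFXR1-LNA, where 37.5% of genes were, and with hemoglobin left out Ccnd3 alone was, where 22% of genes were. On simulated counts a change by a factor of 2 was found for 3% of genes in T-like, 2% in B-like and 6% in granulocyte-like cells.

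**Figure D5:**
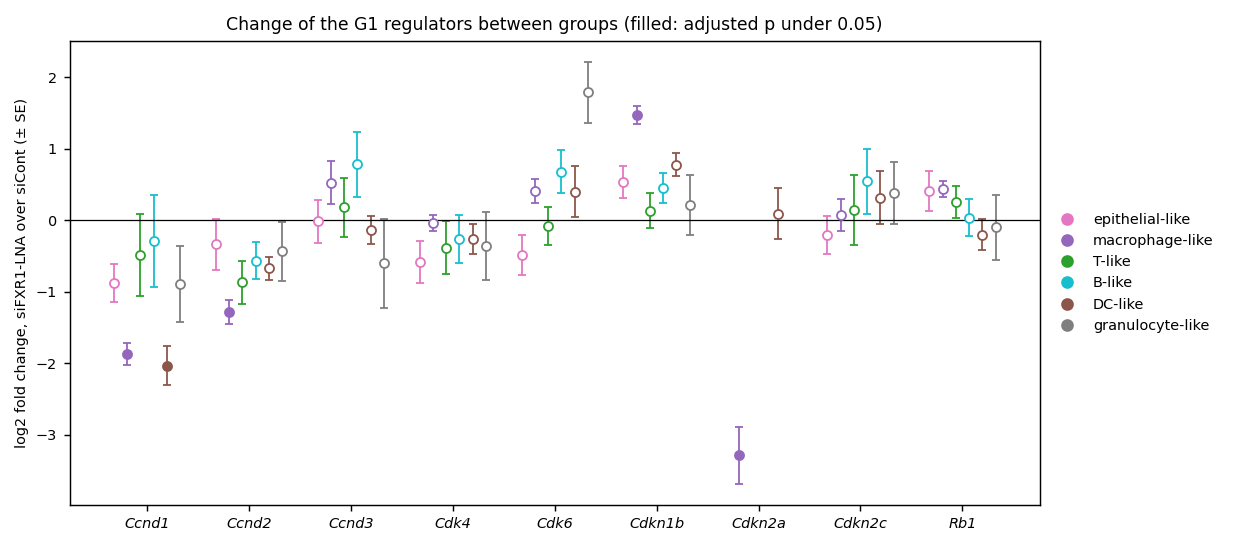
Log2 fold change of each member between libraries labelled siFXR1-LNA and siCont libraries, with its standard error, in 6 cell types (filled points, adjusted p under 0.05). The filled points are Ccnd1, Ccnd2, Cdkn1b and Cdkn2a in macrophage-like cells and Ccnd1 in DC-like cells.

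Whether a member changed differently in epithelial-like cells was tested directly with an interaction term and the library as a block. Against macrophage-like cells 0.662% of 16012 genes passed and 0 members did. The nearest were Cdkn1b, with a difference of -0.88 ± 0.29 (adjusted p = 0.246), and Cdk6, with -0.87 ± 0.31 (adjusted p = 0.285). Against T-like cells and against B-like cells 0 genes passed in edgeR, the only tool run for this, with 956 and 1192 at an unadjusted p under 0.05, and the smallest adjusted p of a member was 0.806 (Ccnd2) and 0.544 (Cdk6, a difference of -1.22 ± 0.38). The change of Ccnd1 in macrophage-like cells is thus not shown to differ from that in epithelial-like cells, where the difference was 1.07 ± 0.38 (adjusted p = 0.291).

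The other genes of the pathway were read from 6 lists. Of 12 S phase genes that E2F regulates, 10 fell in macrophage-like cells, where 9.49% of all genes fell, with Rrm2 at -2.67 ± 0.23, Mcm5 at -2.44 ± 0.30 and Pcna, the replication clamp, at -0.63 ± 0.12, and the list had a median log2 fold change of -1.50 where all genes had 0.0024. In epithelial-like cells 3 of 12 fell, where 4.6% of all genes did, namely Mcm3, Tyms and Rrm2, with a median of -1.07. In DC-like cells 4 of 12 fell, where 1.29% of all genes did, which were Mcm3, Mcm4, Mcm5 and Mcm6, and in granulocyte-like cells 3 of 11, where 1.93% did. None of 11 passed in T-like cells (median -0.86) or in B-like cells (median -0.92). No gene of this list rose in any type, and its median was also negative in DC-like (-1.34) and granulocyte-like cells (-1.14). In macrophage-like subcluster 0 alone, where the test called no gene, none of them passed. These calls depended on single libraries. Without replicate 1 labelled siFXR1-LNA, 12 macrophage-like genes were called in all, each of them higher, so none of the list fell (median -1.42), and without replicate 2 of that group 1 of 12 did (median -1.64). When either of these libraries was left out, none fell in DC-like cells and 1 of 11 in granulocyte-like cells. None fell in epithelial-like cells when replicate 1 of either group was left out. Without the Kntc1 subcluster 5 of 11 fell in them, where the siCont cells that remain are mostly keratin-high. The cycling subcluster of macrophage-like cells held 155 and 123 siCont cells against 24 and 40, and without it 9 of the 12 genes fell. The scaled background was worked out for the members only, so released RNA was not assessed for these lists. Summed cycling markers of siCont replicate 1 were 279 CPM in T-like and 236 CPM in B-like cells, against 235 CPM in macrophage-like cells. In siCont replicate 2 they were 81.0, 83.9 and 222 CPM. The part of released RNA in the S phase result was not tested.

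Of the cyclin E and A partners, which act after cyclin D, Ccna2, Ccne1 and Ccne2 fell in macrophage-like cells (3 of 5) and Ccna2 in epithelial-like cells (1 of 4, -2.20 ± 0.51). Among 12 pocket proteins and E2F factors, Rbl1, E2f7 and E2f8 fell in both types, E2f3 fell in macrophage-like cells (-0.52 ± 0.11) and E2f2 fell in granulocyte-like cells (-1.81 ± 0.41). Of 9 genes for the turnover of cyclin D and p27, Cks1b, the cofactor through which p27 is marked for degradation, fell in epithelial-like cells (-1.52 ± 0.28) and in macrophage-like cells (-1.25 ± 0.22). Usp2, a deubiquitinase of cyclin D1, fell in macrophage-like cells (-1.30 ± 0.20). Skp2 and the other turnover genes did not pass. Of all genes, 4.6% fell in epithelial-like, 9.49% in macrophage-like and 1.93% in granulocyte-like cells. The calls of these 3 lists depended on single libraries, in macrophage-like cells on both labelled siFXR1-LNA and in epithelial-like cells on siCont replicate 1. Without siCont replicate 1 the median log2 fold changes of the 3 lists in epithelial-like cells were -0.61, -0.80 and -0.054, in the order above. With all libraries they were -0.75, -0.75 and 0.17.

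Upstream of cyclin D, Jun rose in epithelial-like cells (1.06 ± 0.27) and in macrophage-like cells (1.54 ± 0.15), Myc rose in epithelial-like cells (1.22 ± 0.31), Mapk3 rose in macrophage-like cells (0.50 ± 0.11), and Fos rose in T-like cells (3.38 ± 0.26) and DC-like cells (1.96 ± 0.21). These are the called genes of the 10 in this list. Of all genes tested, 363 of 13117 were called higher in epithelial-like and 1330 of 14494 in macrophage-like cells. In T-like cells 46 of 12281 were, and in DC-like cells 131 of 12366. The macrophage-like and DC-like calls depended on both libraries labelled siFXR1-LNA. Those of epithelial-like cells depended in part on siCont replicate 2 and on replicate 1 labelled siFXR1-LNA. Of the other inhibitors, none passed in any of the 6 types. Cdkn1a, the p53 target p21, was at 29.3 and 11.8 CPM against 179 and 107 CPM in T-like cells (2.63 ± 0.51, adjusted p = 0.115) and at 26.2 and 9.72 CPM against 158 and 81.9 CPM in B-like cells (2.56 ± 0.57, adjusted p = 0.157).

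By the correlation of log2(CPM + 1) over 32 sums of a cell type in a library, the gene most like Ccnd1 among 6921 genes was Dab2 (r = 0.60). Ccnd2 was most like Unc119b (0.79), Ccnd3 most like Slc15a2 (0.74), Cdk4 most like the chaperone genes Dnaja1 (0.83) and Hsp90ab1 (0.78), and Cdk6 most like Cyth3 (0.84) and Kif13b (0.84). The sums share libraries, depth and released RNA, so these values describe the tables only.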

How the data were processed

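Ascites of siCont and siFXR1-LNA mice was sequenced with a 10x 3′ kit, whose chemistry the labels give in 2 versions. Per the submitters' processing notes the authors aligned to mm10 with Cell Ranger 7.0.0 (the study's methods name a later release), and deposited UMI counts per gene and barcode, which are raw counts. The study used fewer cells and left out 1 siFXR1-LNA library, which the labels do not identify. All 4 were used here, and leaving out each stands in the closing section.

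Barcodes of 100 to 4800 genes, with no more than 15% mitochondrial UMIs, were clustered in Seurat 5.3.0 (R 4.3.3; 2000 variable genes without the G1 lists, 50 components, resolution 0.1). Names came from fixed markers. Scrublet in scanpy 1.11.5 called 1 doublet, so it did not work and no doublets were removed in the main result.

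Counts were summed per type and library and tested with edgeR 4.0.16 (filterByExpr, TMM, quasi-likelihood, Benjamini-Hochberg over all genes tested, threshold 0.05). The libraries are separate pools, but p-values measure only the spread between these 4. Alternatives were DESeq2 1.42.0, other factors and filters, resolution 0.3, hemoglobin left out, single subclusters, a replicate block and single libraries left out. The script was tested on simulated data with 200 changed genes. Named genes were the 9 members, called genes of 6 pathway lists and the best correlates with a mean of at least 20 CPM. Of the S phase list only some called genes were named. Members and lists were chosen with earlier results of these data known.

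Replicate numbers name samples only, with 2 pairs and no shared batch in the labels. Depth was 1349 to 2653 median UMIs per kept barcode. Sequences are from GENCODE on GRCm38.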

Additional observations from a re-analysis of the deposited data

Results flagged for a closer look

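Mast-like cells held too few UMIs of the members to be tested. Their Ccnd3 was at 118 and 292 CPM in siCont libraries against 483 and 477 CPM in the other group, a ratio of means of 2.34, from 15, 26, 43 and 51 UMIs. Without hemoglobin, which took 26.6% and 24.5% of mast-like UMIs in siCont libraries and 5.15% and 2.00% in the others, the Ccnd3 ratio was 1.82. Cdkn1b there was at 78.7 and 67.4 CPM against 89.9 and 103 CPM, a ratio of 1.32. Rb1 was at 47.2 and 56.2 CPM against 56.2 and 74.8 CPM, a ratio of 1.27. Without hemoglobin the ratios of Cdkn1b and Rb1 were 1.02 and 0.977 and the groups overlapped, so neither difference remained. The 3 genes were given because both values labelled siFXR1-LNA were above both siCont values in CPM, which held for 37.5% of 1698 genes past the same filter, and for 22% of 1694 with hemoglobin left out. In CPM the other 6 members overlapped, with Ccnd1 at 126 and 56.2 CPM against 22.5 and 74.8 CPM.

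Cdk6 values of the groups lay in opposite order in epithelial-like and granulocyte-like cells, although neither difference passed its edgeR test (log2 fold change -0.48, adjusted p = 0.338, and 1.79, adjusted p = 0.0537). Every epithelial-like value of a library labelled siFXR1-LNA (166 and 110 CPM) was below both siCont values (194 and 203 CPM). Every granulocyte-like value of such a library (86.9 and 87.3 CPM) was above both siCont values (16.5 and 24.0 CPM). Of all genes tested, 26.5% were lower without overlap in epithelial-like and 34.6% higher without overlap in granulocyte-like cells. The ratio of the epithelial-like to the granulocyte-like fold was 0.162, but the granulocyte-like siCont values rest on 13 and 42 UMIs and the first is at background level (0.783 times the scaled background), so this ratio does not measure a fold of cell expression. The difference between these types was not tested.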

How the results depend on the processing

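Over all alternatives the log2 fold changes of members gave 810 values, of which 716 kept direction and side of the threshold, 17 lost the call, 27 gained one and 50 changed sign. The main counts of genes called were 967 in epithelial-like, 2705 in macrophage-like, 69 in T-like, 12 in B-like, 290 in DC-like and 337 in granulocyte-like cells. The cause of each shift given here was not tested. DESeq2 called 390 genes in T-like, 457 in B-like, 697 in DC-like and 596 in granulocyte-like cells. With no filter on low counts 1929 genes were called in epithelial-like, 1063 in T-like, 1164 in B-like, 1805 in DC-like and 0 in granulocyte-like cells (2148 at an unadjusted p under 0.05, and 596 by DESeq2 as above), the tests of a different change in epithelial-like cells called 963 genes against macrophage-like, 157 against T-like and 392 against B-like cells, Ccnd1 was called (-0.86, edgeR adjusted p = 0.0212) and Ccnd3 was at 0.015 in epithelial-like cells and Rb1 at -0.019 in B-like cells.

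The replicate numbers of the groups name no shared batch in the labels and give only 2 pairs, and the correlation of same-numbered deviations was 0.00065 in epithelial-like cells and 0.217 to 0.404 in the others. With the replicate number as a block 1614 genes were called in epithelial-like, 870 in T-like, 954 in B-like, 1264 in DC-like and 1131 in granulocyte-like cells. Under the block Ccnd3 was at 0.0031 in epithelial-like and Rb1 at 0.0093 in granulocyte-like cells, and Ccnd2 (-0.67) and Cdkn1b (0.78) in DC-like and Cdk6 (1.83) in granulocyte-like cells passed (edgeR adjusted p = 0.0213, 0.0177 and 0.00945).

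Other choices of cells moved counts and members. Resolution 0.3 left 141 genes in DC-like cells, by the marker rule and by matched clusters, and its marker rule gave no epithelial-like cells. With G1 genes allowed in the clustering, T-like cells had Ccnd3 at -0.38, Cdkn2c at -0.16 and cyclin shares of 39.4% for Ccnd2 and 47.1% for Ccnd3. Without the highest Scrublet scores 33 genes were called in B-like cells, and with at least 500 genes per cell Rb1 was at 0.023 in granulocyte-like cells. The remaining choices were made after seeing the data. Without the mixed subcluster 41 genes were called in T-like cells. Without the Kntc1 subcluster 2848 genes were called in epithelial-like cells, with Ccnd3 at 0.061 and Cdk6 at 0.34, and without the cycling subcluster Cdk4 was at 0.013 in macrophage-like cells. In the keratin-high subcluster alone 229 genes were called, with Cdk4 at 0.0038, Cdkn1b at -0.19 and Rb1 at -0.29. Cluster 3 of the macrophage-like cells alone gave 0 genes in edgeR (2247 at an unadjusted p under 0.05) and Cdk6 at -0.099, and the largest subcluster filled by all 4 libraries gave 0 genes (1205 at an unadjusted p under 0.05), Ccnd2 at 0.13, Cdk6 at -0.060 and Rb1 at -0.021. With hemoglobin left out, T-like cells held Cdk6 at 100.4 CPM and Cdkn1b at 171.7 CPM.

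Leaving out each library in turn, where the lone library of an arm is assumed to vary like the rest, gave 511 to 1961 genes in epithelial-like, 12 to 1875 in macrophage-like, 28 to 1181 in T-like, 0 to 1071 in B-like, 0 to 1292 in DC-like and 150 to 2360 in granulocyte-like cells. The tests of a different change gave 0 to 744 genes against macrophage-like, 0 to 895 against T-like and 0 to 1003 against B-like cells. The lowest count came without siCont replicate 1 in epithelial-like cells, without siFXR1-LNA replicate 1 in macrophage-like and granulocyte-like cells, without siFXR1-LNA replicate 2 in T-like and B-like cells, and without either siFXR1-LNA library in DC-like cells. The counts of 0 left 2092 genes at an unadjusted p under 0.05 in B-like and 1612 and 2943 in DC-like cells. The highest came without siFXR1-LNA replicate 2 in epithelial-like cells and without siCont replicate 1 in all other types.

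Members that changed sign in these fits had the following log2 ranges. In epithelial-like cells Ccnd2 ran from -0.91 to 0.094, Ccnd3 from -0.40 to 0.39, Cdkn2c from -0.41 to 0.14 and Rb1 from -0.020 to 0.73. In macrophage-like cells Cdk4 ran from -0.084 to 0.019 and Cdkn2c from -0.11 to 0.30. In T-like cells Ccnd1 ran from -1.13 to 0.74, Ccnd3 from -0.27 to 0.84, Cdk4 from -0.80 to 0.22, Cdk6 from -0.29 to 0.18 and Cdkn2c from -0.43 to 1.09. In B-like cells Ccnd1 ran from -0.99 to 1.07, Cdk4 from -0.63 to 0.21 and Rb1 from -0.20 to 0.29. In DC-like cells Ccnd3 ran from -0.37 to 0.13, Cdk6 from -0.23 to 0.92, Cdkn2a from -0.077 to 0.25, Cdkn2c from -0.11 to 0.92 and Rb1 from -0.57 to 0.037. In granulocyte-like cells Ccnd1 ran from -1.52 to 0.31, Ccnd3 from -1.24 to 0.999, Cdk4 from -0.86 to 0.50, Cdkn2c from -0.079 to 1.03 and Rb1 from -0.49 to 0.77.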

Other observations

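Natural killer-like cells were numerous enough to be summed in the siCont libraries only, with 72 and 55 cells, and entered no comparison. They held Ccnd3 at 296 and 320 CPM and Ccnd2 at 237 and 233 CPM, from 56 to 85 UMIs each. Their Ccnd1 was at 110 and 11.3 CPM and their Cdk6 at 29.6 and 97.8 CPM, the latter from 7 and 26 UMIs.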
